A study of Arabidopsis thaliana with 12 samples.

Results

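The 10 genes described here are regulators of the iron deficiency response in Arabidopsis thaliana, chosen by their gene identifiers out of 32833 genes in the deposited table. They are the bHLH subgroup Ib genes BHLH38 (AT3G56970), BHLH39 (AT3G56980), BHLH100 (AT2G41240) and BHLH101 (AT5G04150), the regulator genes PYE (AT3G47640), BTS (AT3G18290) and BTSL1 (AT1G74770), and the peptide genes IMA1 (AT1G47400), IMA2 (AT1G47395) and IMA3 (AT2G30766). Their RNA was measured by sequencing in whole seedlings aged 8 days, in 4 groups formed by genotype (KC or phod2) and condition (P+ or P-). Each group has 3 libraries, which the series' design text calls biological replicates. The labels also speak of HP and LP and give no concentration, and P+ and P- were taken as high and low phosphate from the subject of the title. The title names a plastid-located lipoyl synthase, LIP1p, but the labels state neither which gene is altered in phod2 nor what KC stands for. The authors' column headers write WT for the KC P+ libraries, so if that is another line, every result below that uses KC P+ carries the difference between lines too.

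When a plant lacks iron, transcription factors of the bHLH subgroup IVc switch on the subgroup Ib genes, whose products pair with the root factor FIT to drive ferric reduction and iron import. PYE encodes a further bHLH factor, which represses genes of iron movement and storage. BTS and BTSL1 encode ubiquitin ligases with iron-binding hemerythrin domains that keep the response in check by marking its activators for breakdown. The IMA (IRON MAN) genes encode short peptides that promote iron uptake and bind BTS-type ligases through their aspartate-rich carboxyl end.

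The IMA coding sequences are shown because the peptide genes were called higher in phod2 in each condition and because IMA1 and IMA2 are close copies. They were read from the RefSeq TAIR10.1 genome and are printed 5′ to 3′. Capitals mark the last 54 bases with the stop codon, of which 37 were identical in all 3 genes and all 54 between IMA1 and IMA2.
IMA1: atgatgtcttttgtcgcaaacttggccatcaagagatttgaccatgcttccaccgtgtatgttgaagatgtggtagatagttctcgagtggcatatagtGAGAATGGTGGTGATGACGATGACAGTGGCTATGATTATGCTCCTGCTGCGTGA
IMA2: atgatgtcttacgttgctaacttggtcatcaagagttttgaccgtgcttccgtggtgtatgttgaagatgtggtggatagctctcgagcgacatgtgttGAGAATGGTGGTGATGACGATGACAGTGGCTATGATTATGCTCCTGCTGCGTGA
IMA3: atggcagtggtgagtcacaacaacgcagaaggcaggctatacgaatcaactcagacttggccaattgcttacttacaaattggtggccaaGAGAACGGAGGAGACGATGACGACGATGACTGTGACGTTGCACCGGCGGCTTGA
Over the whole coding sequence IMA1 and IMA2 were identical at 88.9% of aligned bases, whereas IMA3 matched IMA1 at 49.4% and IMA2 at 50.6%. The longest exonic stretch without a mismatch was 59 bases between IMA1 and IMA2 and 11 bases between IMA3 and each of them. The length of the reads was not given in the sources used here, so reads of IMA1 and IMA2 may have been shared in the counting, and the division between this pair is uncertain.

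IMA2 and IMA1 lie in tandem on the plus strand of chromosome 1, at 17382998 to 17383830 and 17385707 to 17386485, and IMA3 lies on the plus strand of chromosome 2, at 13107583 to 13110480. The coding sequence takes 153 bases of IMA1 (17385818 to 17385970), 153 of IMA2 (17383117 to 17383269) and 144 of IMA3 (13108068 to 13108211), and the rest of the exons is untranslated in the annotation. The 250 bases before the annotated starts of IMA1 and IMA2 were identical at 67.5% of aligned bases, against 42.8% for IMA1 with IMA3 and 47.3% for IMA2 with IMA3. They are shown because this pair of genes had like levels, and capitals mark their longest shared run of 28 bases.
IMA1 (chr1:17385457-17385706, TAIR10.1, plus strand): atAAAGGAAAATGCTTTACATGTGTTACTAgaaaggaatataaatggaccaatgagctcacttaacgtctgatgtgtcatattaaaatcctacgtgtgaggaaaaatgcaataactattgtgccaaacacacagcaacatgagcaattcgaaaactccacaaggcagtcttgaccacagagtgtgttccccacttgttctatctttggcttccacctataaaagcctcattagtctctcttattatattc
IMA2 (chr1:17382748-17382997, TAIR10.1, plus strand): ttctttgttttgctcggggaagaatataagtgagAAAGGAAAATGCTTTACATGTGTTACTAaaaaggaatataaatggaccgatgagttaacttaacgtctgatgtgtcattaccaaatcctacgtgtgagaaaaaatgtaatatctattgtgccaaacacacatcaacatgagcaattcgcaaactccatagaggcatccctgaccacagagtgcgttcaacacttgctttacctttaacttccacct

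Totals ranged from 16821084 to 23327960 counts per library, and all 10 genes passed the filter on low counts. Levels are CPM, the counts relative to the library total after TMM scaling, with the SD over 3 libraries. Differences are on the log2 scale, with p-values from edgeR's quasi-likelihood test. That test returns no SE, so the SE was calculated from the variance and weights of its fit and is an approximation. Calls needed 2-fold or more and an adjusted p no higher than 0.05, as in the series' design text. Replicate 2 of phod2 P- stood apart from its group: its difference from the other 2 libraries fell with exonic length (Spearman -0.81 across genes, which share a library and are not replicates). Genes with exons of at most 891 bases, as of IMA1 and IMA2, had a median log2 difference of 0.50 there, and genes of at least 3186 bases, as of BTS and BTSL1, one of -0.67. Where leaving out this library changed a call of the 10 genes or moved a value of theirs by over 1.5 times, the value without it is given. Values and calls of other genes and lists were not examined without it. No harvest time was given. Summed over 6 morning clock genes, the level was 11.5 to 14.6 CPM in KC P+ and 11.04 to 12.5 in phod2 P+, against 708.5 to 729 in KC P- and 621 to 764.5 in phod2 P-, so phosphate supply and time of day cannot be told apart. All 6 were called higher in P- in each genotype, and of 7 evening genes 6 were called lower and GI higher. Over all tested genes, 10.9% were called higher in P- and 9.6% lower in KC, and 14.1% and 10.3% in phod2. Evening genes summed to 532 to 540 CPM in KC P+ and 521 to 532 in phod2 P+, and to 104 to 107 in KC P- and 77.5 to 98.6 in phod2 P-. Between the genotypes LNK1 and GI were called lower in phod2 in P+, where 5.42% of all tested genes were. PRR5 and ELF4 were called lower in P-, where 2.46% of all tested genes were. The part of these differences in the values of the 10 genes was not tested.

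In P+, 6 of the 10 genes were called higher in phod2 than in KC and 0 lower, where 1.98% of the 20891 genes tested were called higher and 5.42% lower. They were the 3 IMA genes, BHLH38, BHLH39 and BHLH100. On the log2(FPKM + 1) scale BHLH39 was at 0.82, under 2-fold, and the other 5 were called. The median log2 difference was 1.42 over the 10 genes and 0.036 over all genes tested. In P-, the 3 IMA genes were called higher in phod2 and 0 of the 10 genes lower, with a background of 2.23% higher and 2.46% lower. There the median was 0.79 over the 10 genes and 0.003 over all.

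Root markers differed between the genotypes in the same libraries. Over all tested genes, 5.42% were called lower in phod2 and 1.98% higher in P+, and 2.46% and 2.23% in P-. Of 10 root marker genes, 7 were called lower in phod2 than in KC in P+ and 2 in P-, with 0 called higher. Their summed level was 178 to 189 CPM in KC P+ and 195 to 202 in KC P-, and phod2 had 101 to 107 in P+ and 136 to 148.5 in P-, and each marker had counts in every group. Of 8 shoot markers, GL1 was called higher in phod2 in P+ and 0 were called in P-, counts that lie near those shares. The summed shoot level was 25350 to 25730 CPM in KC P+ and 31040 to 31830 in KC P-, and phod2 had 25850 to 26330 in P+ and 30350 to 40390 in P-. In whole seedlings, fewer cells of a type and less RNA per cell cannot be told apart, and the part of these shifts in the values of the 10 genes was not tested.

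Between P- and P+ in KC, BHLH38 was called higher and BHLH100 and BHLH101 were called lower, with 10.9% of all tested genes called higher and 9.6% lower. In phod2, BHLH100 and BHLH101 were again called lower and 0 of the 10 genes higher, with 14.1% of all genes called higher and 10.3% lower. On the log2(FPKM + 1) scale, which understates changes of low genes, 0 of the 10 genes passed 2-fold in KC, with BHLH38 at 0.79, BHLH100 at -0.89 and BHLH101 at -0.42. With 10 genes, calls of 0 to 2 in a direction lie near these backgrounds. The medians were 0.056 over the 10 genes and 0.008 over all genes in KC, and -0.34 and 0.0086 in phod2. The interaction, in which the change in KC is taken from that in phod2, was called for BHLH38 (lower), where 0.685% of all genes were called lower and 2.39% higher. Its median was -0.39 over the 10 genes and -0.0032 over all. The 2 genotype comparisons share no libraries, but each shares groups with the condition comparisons and the interaction.

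**Figure D1:**
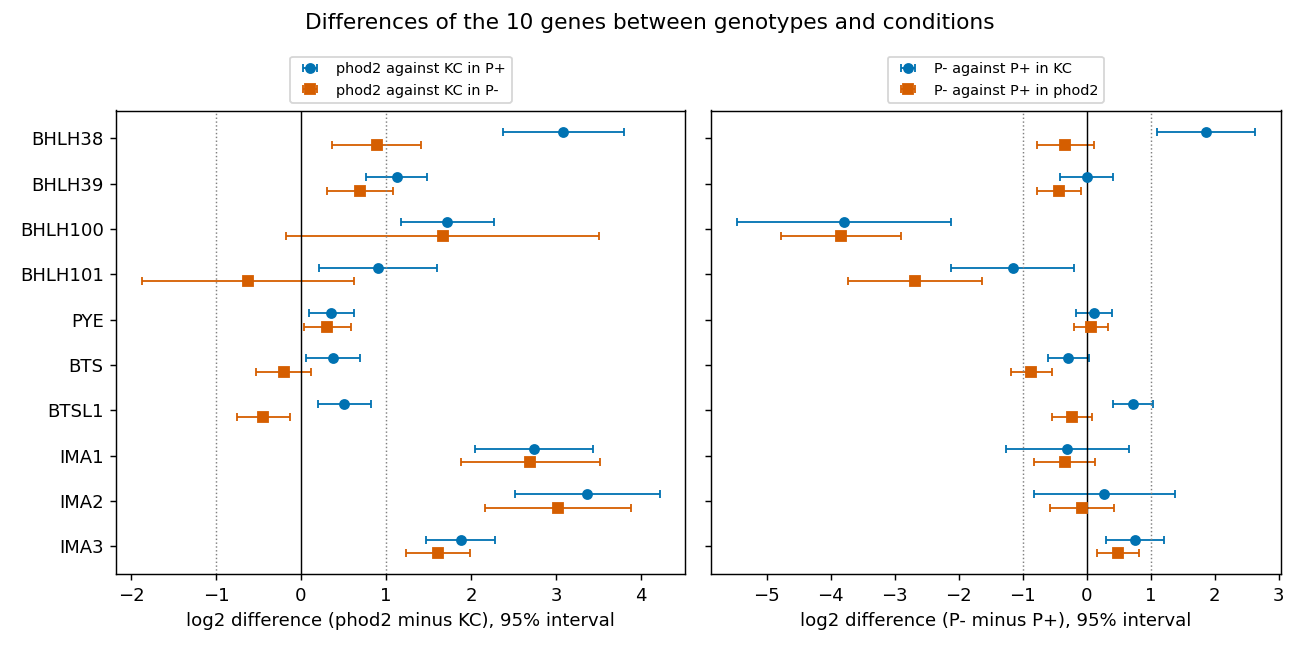
Log2 differences of the 10 genes with 95% intervals calculated from the edgeR fit. The left side has phod2 minus KC in each condition, and the right side P- minus P+ in each genotype. Dotted lines mark 2-fold. The IMA genes lie beyond 2-fold between the genotypes in each condition, while BHLH100 and BHLH101 lie beyond it between the conditions.

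The IMA peptide genes were higher in phod2 in each condition. IMA1 stood at 0.383, 0.273 and 0.829 CPM in KC P+ and at 0.478, 0.388 and 0.36 in KC P-, and phod2 had 4.01, 3.51 and 2.78 in P+ and 2.58, 3.12 and 2.41 in P-. Every phod2 library lay above every KC library, and within a genotype the conditions overlapped. The mean rose from 0.495 ± 0.294 to 3.43 ± 0.62 CPM between KC and phod2 in P+, 6.66-fold (log2 2.74 ± 0.323, adjusted p = 6.05e-06). Without KC P+ replicate 3, the highest of its group, the difference in P+ was 3.33. In P- it rose from 0.408 ± 0.0617 to 2.71 ± 0.371, 6.48-fold (2.70 ± 0.379, adjusted p = 3.86e-05).

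IMA2 had 0.425, 0.218 and 0.611 CPM in KC P+ and 0.478, 0.388 and 0.719 in KC P-, and phod2 had 3.70, 5.36 and 4.43 in P+ and 3.72, 5.996 and 3.31 in P-. The genotypes were separate and the conditions overlapped, as for IMA1. The difference between phod2 and KC was 10.3-fold in P+ (log2 3.37 ± 0.395, adjusted p = 3e-06) and 8.11-fold in P- (3.02 ± 0.397, adjusted p = 1.82e-05). Without phod2 P- replicate 2, the highest IMA2 library, the difference in P- was 2.75, and that of IMA1 was 2.61.

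IMA3 had 2.93, 2.84 and 2.88 CPM in KC P+ and 4.51, 4.65 and 5.45 in KC P-, and phod2 had 11.2, 10.8 and 9.90 in P+ and 13.2, 19.9 and 11.8 in P-. Its 4 groups did not overlap and rose in that order. Compared with KC, phod2 was 3.67-fold higher in P+ (log2 1.88 ± 0.19, adjusted p = 3.05e-06) and 3.06-fold higher in P- (1.61 ± 0.175, adjusted p = 1.11e-05). Without phod2 P- replicate 2, whose value of 19.9 stands apart, the difference in P- was 1.39. Levels of the 3 genes can be compared per length. In phod2 P+ the deposited FPKM values were 4.49 ± 0.814 for IMA1, 5.50 ± 1.01 for IMA2 and 5.43 ± 0.334 for IMA3. In KC P+ they were 0.64 ± 0.38, 0.503 ± 0.24 and 1.46 ± 0.02. In P- they were 0.523 ± 0.0777, 0.633 ± 0.203 and 2.43 ± 0.246 in KC and 3.37 ± 0.32, 5.03 ± 1.44 and 7.26 ± 1.74 in phod2, so IMA3 had the highest mean in each group but phod2 P+.

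Between conditions 0 of the 3 IMA genes were called. With 9.6% to 14.1% of all tested genes called in a direction, 0 of 3 lies near the background. IMA3 was higher in P- than in P+ by a log2 of 0.75 ± 0.208 in KC (adjusted p = 0.00574) and of 0.49 ± 0.153 in phod2 (adjusted p = 0.0116), each under 2-fold, and without phod2 P- replicate 2 by 0.29 in phod2. For IMA1 the log2 difference was -0.30 (95% interval -1.26 to 0.66) in KC and -0.34 (-0.82 to 0.14) in phod2. For IMA2 it was 0.28 (-0.82 to 1.37) in KC and -0.07 (-0.57 to 0.43) in phod2. In KC the interval of IMA1 reaches past a 2-fold fall and that of IMA2 past a 2-fold rise. The sign for IMA1 in KC turned on 1 library, with a difference of 0.29 without KC P+ replicate 3. Without phod2 P- replicate 2 the differences in phod2 were -0.41 for IMA1 and -0.31 for IMA2. The change did not differ between the genotypes past the threshold for any of the 3 genes, with interaction intervals of -1.11 to 1.03 for IMA1, -1.55 to 0.86 for IMA2 and -0.82 to 0.29 for IMA3. Without phod2 P- replicate 2 the interactions were -0.10, -0.59 and -0.46 in the same order. IMA3 overlaps 2 genes of the opposite strand, AT2G30760 by 639 bases and CYP71A13 by 572 bases, and the use of strand was not given in the sources used here. Their means were at most 0.143 and 0.779 CPM in any group.

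**Figure D2:**
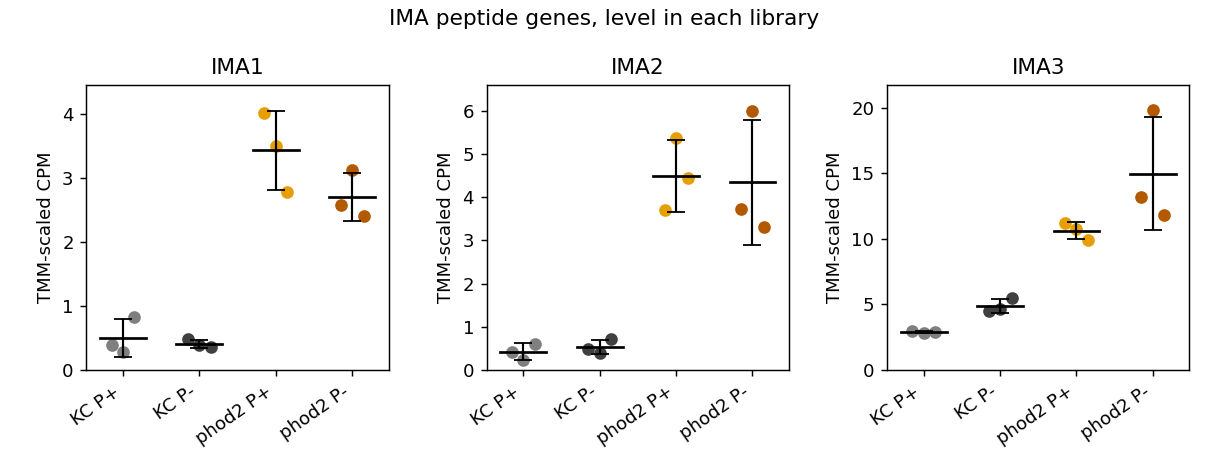
TMM-scaled CPM of IMA1, IMA2 and IMA3 in each library (points), with the mean (line) and SD (bars) of the 3 libraries in a group. The phod2 libraries lie above all KC libraries of the same condition for each gene, and 1 phod2 P- library of IMA3 lies at 19.9.

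Genes around the IMA1 and IMA2 pair were looked at after the values had been seen. Of 12 genes within 20000 bases on either side, the pair included, AT1G07357, AT1G47370, AT1G47389, AT1G47390 and AT1G47450 had too few counts to be tested. Over all tested genes, 1.98% were called higher in phod2 in P+ and 2.23% in P-. Here the pair that set the window and a further 2, AT1G07367 and AT1G07373, were called higher in phod2. RefSeq annotates the latter 2 as long non-coding RNAs, on the plus strand at 17388989 to 17389500 and on the minus strand at 17392374 to 17393026. AT1G07367 held 7 counts over the 3 KC P+ libraries and 3 in KC P-, but 63 and 51 in the same conditions of phod2. From these sums its ratio of phod2 to KC was 9.39 in P+ (95% counting interval 4.3 to 24.3) and 16.3 in P- (5.27 to 81.6). AT1G07373 held 2, 3, 69 and 33 counts, with ratios of 36.0 (9.6 to 303) in P+ and 10.5 (3.31 to 53.7) in P-. These intervals cover counting error only. Both genes were thus nearly silent in KC and had about 1 CPM in phod2 P+ (1.03 ± 0.324 and 1.11 ± 0.133).

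The neighbours expressed at higher levels did not share this pattern. AT1G47380 stood at 32.5 CPM in KC P+ and 24.4 in phod2 P+, AT1G47410 at 7.45 and 6.35, and SDH5 (AT1G47420), which encodes a subunit of the mitochondrial succinate dehydrogenase, at 128 and 136. These 3 genes were not called between the genotypes in either condition. Exons of AT1G07367 and AT1G07373 held a stretch like the capital part of IMA1, with 39 of 54 bases identical (72.2%) in each, against 37 (68.5%) for IMA3. In AT1G07373 it lies on the strand opposite to the annotated one. The stretches are shown beside the IMA sequences for that likeness, and neither the deposited table nor RefSeq gives these genes a name or a role.
AT1G07367: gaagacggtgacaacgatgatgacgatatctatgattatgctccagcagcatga
AT1G07373: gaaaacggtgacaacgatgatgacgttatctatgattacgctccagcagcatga

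**Figure D3:**
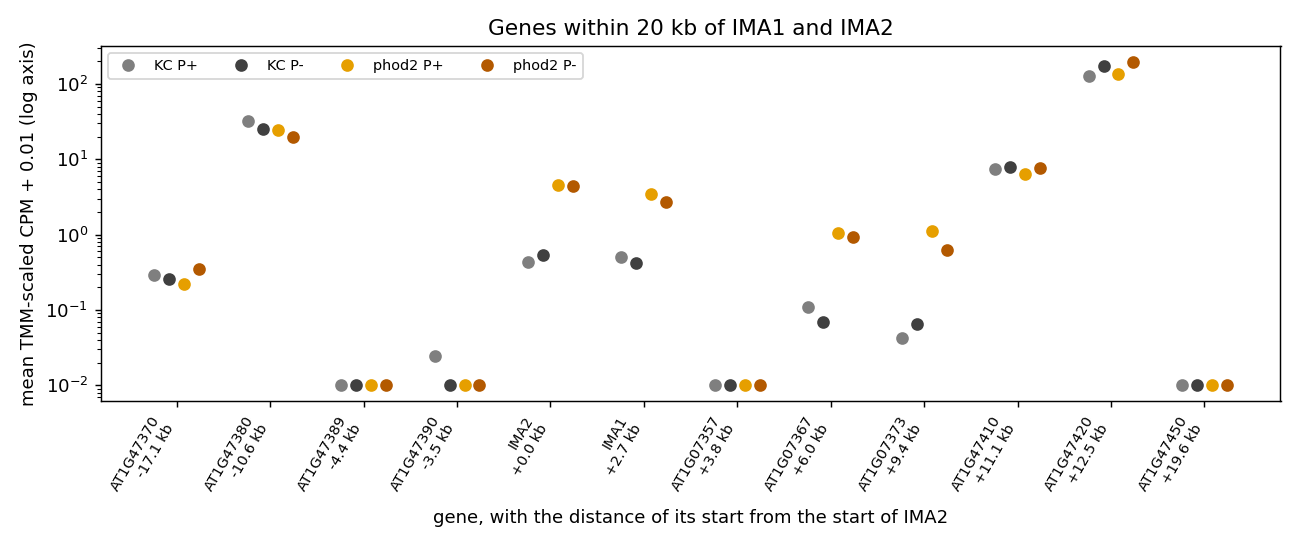
Mean TMM-scaled CPM plus 0.01 (log axis) in the 4 groups for 12 genes around IMA1 and IMA2, by the distance of each annotated start from that of IMA2. IMA2, IMA1, AT1G07367 and AT1G07373 are higher in the phod2 groups than in the KC groups, and points at the bottom are genes without counts.

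Of the 4 bHLH subgroup Ib genes, 3 were called higher in phod2 in P+, where 1.98% of all tested genes were. Between the conditions, BHLH100 and BHLH101 fell in P- in each genotype, and BHLH38 rose in KC. BHLH38 (chromosome 3, 21084035 to 21085245, minus strand; ORG2 in the deposited table) had 0.213, 0.491 and 0.567 CPM in KC P+ and 1.33, 1.16 and 2.16 in KC P-, and phod2 had 3.44, 3.51 and 3.81 in P+ and 2.77, 3.06 and 2.75 in P-. Its groups did not overlap, and KC P+ was lowest and phod2 P+ highest. BHLH38 rose 8.48-fold in phod2 against KC in P+ (log2 3.08 ± 0.329, adjusted p = 1.5e-06). In KC it rose 3.64-fold from P+ to P- (1.86 ± 0.353, adjusted p = 0.000204), whereas in phod2 it differed by -0.33 ± 0.207 (adjusted p = 0.168). The interaction was -2.19 ± 0.41 (95% interval -3.07 to -1.31, adjusted p = 0.00214), and -2.20 without phod2 P- replicate 2.

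In P- the phod2 excess of BHLH38 was 1.85-fold (0.89 ± 0.244, adjusted p = 0.0164), under the 2-fold limit, and without KC P- replicate 3 it was 1.19 and called. BHLH38 overlaps PIP5K4 of the opposite strand, which encodes a phosphoinositide kinase, by 386 bases. PIP5K4 fell in P- in KC (-1.27) and in phod2 (-1.53), with 11.1 CPM in KC P+ and 4.61 in KC P-, and phod2 had 15.7 in P+ and 5.38 in P-. Without strand its reads in the overlap cannot be told apart from those of BHLH38.

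BHLH39 (ORG3 in the deposited table) lies next to BHLH38, at 21086390 to 21087710 on the same strand, and their coding sequences were identical at 83.1% of aligned bases. The longest exonic run they shared was 34 bases. BHLH39 had 2.21, 1.80 and 2.05 CPM in KC P+ and 1.96, 2.33 and 1.80 in KC P-, and phod2 had 4.38, 4.82 and 4.12 in P+ and 3.54, 2.56 and 3.70 in P-. The conditions overlapped in KC, and all phod2 libraries lay above all KC libraries. BHLH39 rose 2.18-fold in phod2 in P+ (log2 1.12 ± 0.168, adjusted p = 0.000145). In P- the difference was 1.62-fold (0.69 ± 0.183, adjusted p = 0.0135), and 0.84 without phod2 P- replicate 2. From P+ to P- BHLH39 differed by 0.00 ± 0.191 in KC (95% interval -0.41 to 0.41), in contrast to BHLH38 beside it. In phod2 it was lower in P- by -0.43 ± 0.158 (adjusted p = 0.0261), and without phod2 P- replicate 2 by -0.26 (adjusted p = 0.189). The interaction of BHLH39 was -0.43 ± 0.248 (adjusted p = 0.302).

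BHLH100 (chromosome 2, 17198037 to 17199454, minus strand) was low in P- in each genotype. It had 1.11, 1.25 and 1.00 CPM in KC P+ and 0.0531, 0 and 0.18 in KC P-, and phod2 had 3.91, 3.605 and 3.54 in P+ and 0.181, 0.125 and 0.449 in P-. The P- values come from 1, 0 and 3 counts in KC and 4, 2 and 8 in phod2, and a count of 0 in KC P- replicate 2 allowed up to 0.166 CPM (3 counts). P+ and P- libraries did not overlap in either genotype. From P+ to P- BHLH100 fell by 3.79 ± 0.777 on the log2 scale in KC (adjusted p = 2.45e-05) and by 3.84 ± 0.437 in phod2 (adjusted p = 1.69e-07). Without KC P- replicate 3 the fall in KC was -5.07, and without phod2 P- replicate 3 that in phod2 was -4.50. Without phod2 P- replicate 2 it was -3.54. The interaction was -0.05 (95% interval -1.97 to 1.86), which spans differences of over 2-fold either way. It turned to 1.23 without KC P- replicate 3. In P+ BHLH100 was 3.29-fold higher in phod2 (1.72 ± 0.254, adjusted p = 0.000113). In P- the groups overlapped and the difference was 1.66 ± 0.854 (adjusted p = 0.129). It was 2.94 without KC P- replicate 3 (adjusted p = 0.0536) and 1.01 without phod2 P- replicate 3.

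BHLH101 (chromosome 5, 1138410 to 1139633, minus strand) also fell in P-. It had 0.723, 0.927 and 1.00 CPM in KC P+ and 0.319, 0.388 and 0.479 in KC P-, and phod2 had 1.67, 1.27 and 2.02 in P+ and 0.0907, 0.562 and 0.168 in P-. The conditions did not overlap within a genotype, and phod2 P- replicate 2 lay above all KC P- libraries while the other 2 lay below them. From P+ to P- BHLH101 fell by 2.68 ± 0.488 on the log2 scale in phod2 (adjusted p = 5.73e-05) and by 1.16 ± 0.446 in KC (adjusted p = 0.0283). Without phod2 P- replicate 2 the difference in phod2 was -3.62. The call in KC was lost without KC P+ replicate 2 or 3 or KC P- replicate 1 or 2 (adjusted p = 0.0602, 0.0842, 0.0959 and 0.0703 in that order). The interaction was -1.53 ± 0.662 (adjusted p = 0.153), and without phod2 P- replicate 2 it was -2.46 and called (adjusted p = 0.0103). In P+ BHLH101 was 1.87-fold higher in phod2 (0.91 ± 0.321, adjusted p = 0.0462), and without phod2 P+ replicate 2 the difference was 1.06 and called. In P- the groups overlapped and the difference was -0.62 ± 0.579 (adjusted p = 0.453), and -1.58 without phod2 P- replicate 2 (adjusted p = 0.0791). Its 79-base overlap with GLU1, a glutamate synthase gene of the opposite strand at 1429 to 1684 CPM in mean, may hold reads that cannot be told apart without strand.

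**Figure D4:**
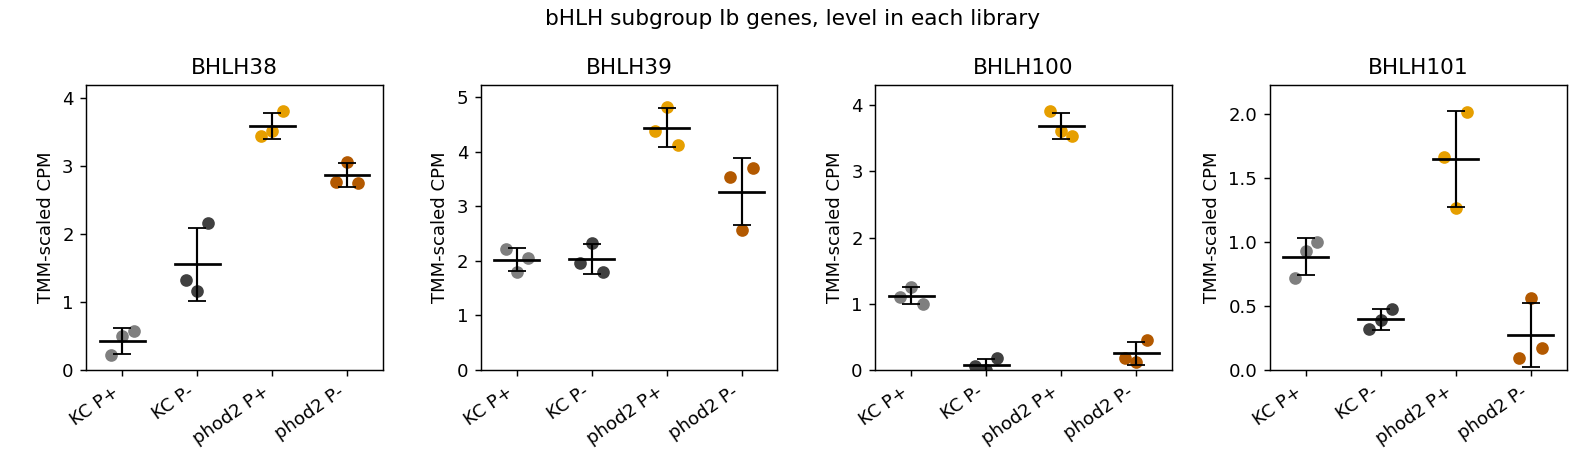
TMM-scaled CPM of the 4 bHLH subgroup Ib genes in each library (points), with the mean (line) and SD (bars) of the 3 libraries in a group. In phod2 P+ the libraries are above all KC P+ libraries for each gene, BHLH100 and BHLH101 are low in P-, and BHLH38 is lowest in KC P+.

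The promoters of BHLH38, BHLH100 and BTS are shown because, of the 10 genes, these 3 held the G-box CACGTG, a palindrome that bHLH factors can bind, in the 250 bases before the annotated start. BHLH38 and BHLH100 each held 1, starting 97 and 91 bases before the start, and BTS held 3, starting 146, 124 and 70 bases before it. Among 27442 promoters of protein-coding genes of the same length, 6.5% held it. Capitals mark the G-boxes.
BHLH38 (chr3:21085246-21085495, TAIR10.1, minus strand): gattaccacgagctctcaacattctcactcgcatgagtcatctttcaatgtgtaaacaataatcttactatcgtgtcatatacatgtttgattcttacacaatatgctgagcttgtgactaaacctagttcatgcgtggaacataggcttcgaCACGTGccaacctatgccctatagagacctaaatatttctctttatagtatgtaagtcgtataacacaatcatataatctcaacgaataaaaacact
BHLH100 (chr2:17199455-17199704, TAIR10.1, minus strand): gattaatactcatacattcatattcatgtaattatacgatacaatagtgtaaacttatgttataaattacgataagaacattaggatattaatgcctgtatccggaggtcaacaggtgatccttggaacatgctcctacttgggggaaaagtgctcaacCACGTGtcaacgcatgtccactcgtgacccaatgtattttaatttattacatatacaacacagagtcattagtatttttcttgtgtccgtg
BTS (chr3:6273716-6273965, TAIR10.1, plus strand): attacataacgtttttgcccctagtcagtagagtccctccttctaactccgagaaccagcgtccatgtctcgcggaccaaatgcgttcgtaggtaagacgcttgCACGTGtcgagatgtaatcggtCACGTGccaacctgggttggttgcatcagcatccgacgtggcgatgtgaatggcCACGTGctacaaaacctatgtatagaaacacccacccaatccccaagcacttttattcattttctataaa
BHLH38 and BHLH100 moved in opposite directions between the conditions in KC, and the part of the G-box in their levels was not tested. Neither the phosphate-starvation motif P1BS in the form GNATATNC (5.5% of promoters) nor the evening element AAAATATCT of clock-controlled genes (2.4%) was found in these windows of the 10 genes on either strand.

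PYE (chromosome 3, 17567126 to 17569394, plus strand) had the smallest spread of the 10 genes over the 12 libraries (0.21 on the log2 scale). It had 7.10, 5.89 and 7.28 CPM in KC P+ and 8.17, 7.15 and 6.65 in KC P-, and phod2 had 9.06, 8.19 and 8.87 in P+ and 9.15, 10.4 and 7.85 in P-. In P+ all phod2 libraries lay above all KC libraries, and in P- the genotypes overlapped. The difference between phod2 and KC was 1.28-fold in P+ (log2 0.36 ± 0.123, adjusted p = 0.0434) and 1.24-fold in P- (0.31 ± 0.126, adjusted p = 0.0928), both under the limit. From P+ to P- it was 0.11 (95% interval -0.16 to 0.39) in KC and 0.07 (-0.20 to 0.33) in phod2, so a change of 2-fold lies outside each interval. The interaction of PYE was -0.05 (-0.42 to 0.33).

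BTS (chromosome 3, 6273966 to 6280562, plus strand) had the highest level of the 10 genes per length, at 22.1 ± 0.378 FPKM in KC P+, where the others had between 0.397 and 4.93. In CPM it had 97.7, 100.3 and 97.5 in KC P+ and 82.5, 79.7 and 80.3 in KC P-, and phod2 had 128, 132 and 124 in P+ and 83, 46.3 and 81 in P-. P+ libraries lay above P- libraries in each genotype, and phod2 P+ was highest. BTS was 1.30-fold higher in phod2 in P+ (log2 0.38 ± 0.149, adjusted p = 0.0757). From P+ to P- it differed by -0.29 ± 0.15 in KC (adjusted p = 0.112) and by -0.87 ± 0.15 in phod2 (adjusted p = 0.000159), each under 2-fold.

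The p-values of BTS turn on phod2 P- replicate 2, which stood at 46.3 CPM. Without it the difference was -0.28 in KC (adjusted p = 9.06e-10), -0.60 in phod2 (adjusted p = 2.29e-20) and 0.35 between phod2 and KC in P+ (adjusted p = 3.49e-13), all still under 2-fold. The interaction was -0.58 ± 0.212 (adjusted p = 0.0969), and -0.32 without that library (adjusted p = 6.25e-06). In P- the genotypes differed by -0.20 ± 0.152 (adjusted p = 0.36) with that library and by 0.04 without it. The spread in the fit is shared by all groups and moderated over genes. The very small p-values without that library therefore do not rest on the libraries compared alone.

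BTSL1 (chromosome 1, 28089172 to 28094956, minus strand) had an interaction past the p limit, though under 2-fold. It had 12.8, 13.3 and 13.3 CPM in KC P+ and 23.4, 19.4 and 22.2 in KC P-, and phod2 had 17.9, 18.9 and 19.1 in P+ and 19.0, 10.99 and 17.3 in P-. KC P+ was below KC P- and phod2 P+ without overlap, and phod2 P+ and phod2 P- overlapped. From P+ to P- BTSL1 was 1.65-fold higher in KC (log2 0.72 ± 0.145, adjusted p = 0.000574), and in phod2 the difference was -0.23 ± 0.145 (adjusted p = 0.178). The interaction was -0.95 ± 0.205 (adjusted p = 0.00756), just under 2-fold, and -0.72 without phod2 P- replicate 2 (adjusted p = 1.39e-06). Compared with KC, phod2 was higher in P+ (0.51 ± 0.145, adjusted p = 0.0177) and lower in P- (-0.44 ± 0.145, adjusted p = 0.0411), the latter -0.23 without that library. BTSL1 overlaps AT1G74750 of the opposite strand by 471 bases, which had 8.19 to 10.4 CPM in mean.

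**Figure D5:**
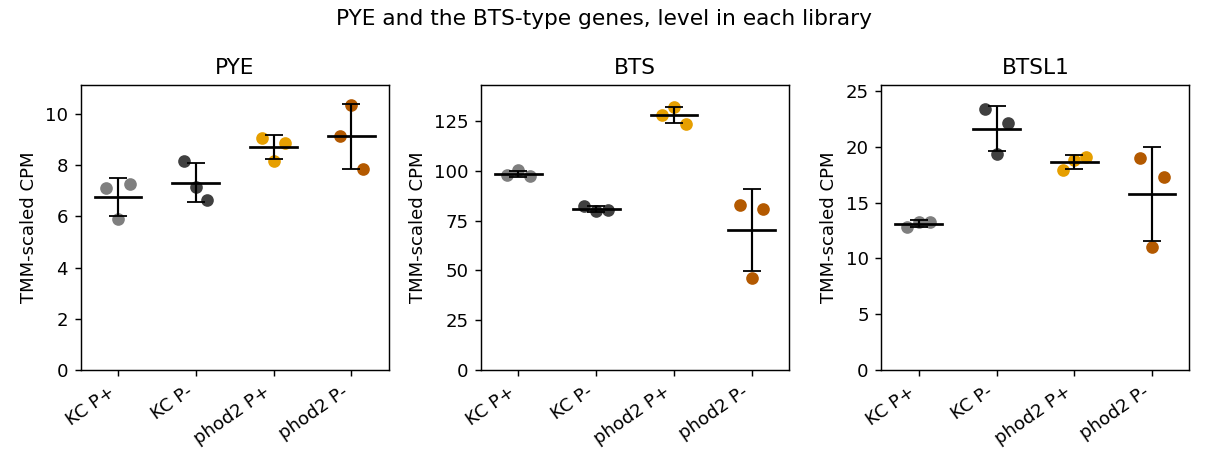
TMM-scaled CPM of PYE, BTS and BTSL1 in each library (points), with the mean (line) and SD (bars) of the 3 libraries in a group. BTS is highest in phod2 P+, BTSL1 is lowest in KC P+ apart from 1 phod2 P- library at 10.99, and that same library is the low point of BTS at 46.3.

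The 4 groups ranked differently from gene to gene. By group means, the 3 IMA genes, BHLH38, BHLH39 and PYE had each phod2 group above each KC group, BHLH100, BHLH101 and BTS had each P+ group above each P- group, and BTSL1 had KC P+ lowest and KC P- highest. Over the 12 libraries, the root mean square difference of the centred log2 profiles was smallest between PYE and BTSL1 (0.39), PYE and BHLH39 (0.40) and IMA1 and IMA2 (0.42). The profiles of PYE and BTSL1 themselves had little spread, 0.21 and 0.33, whereas those of IMA1 and IMA2 had 1.32 and 1.55.

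Of 14 other listed regulators of the iron response 10 were tested. In P+ 0 were called higher and 0 lower in phod2 (median log2 0.05), while 1, BHLH20, was lower in P- (-1.01). With 1.98% to 5.42% of all genes called in a direction between the genotypes, such counts in 10 genes lie near the background. Of those not tested for low counts, MYB72 held 19 counts in phod2 P+ and 0 in each other group. BHLH18, BHLH19 and BHLH25 went the other way in P+, with 17, 4 and 18 counts in KC and 0, 0 and 5 in phod2. FIT, the partner of the subgroup Ib factors, had 8.71 ± 0.412 CPM in KC P+ and 11.4 ± 0.69 in KC P-, and phod2 had 5.90 ± 0.345 in P+ and 7.07 ± 1.63 in P-. It was thus lower in phod2 by -0.56 ± 0.135 in P+ (adjusted p = 0.00639) and by -0.69 ± 0.133 in P- (adjusted p = 0.00178), where the IMA genes rose. Between conditions, BHLH34 (2.56 in KC, 2.75 in phod2) and BHLH11 (1.60, 1.59) rose and URI (-1.92, -1.89) fell. With 9.6% to 14.1% of all genes called in a direction between the conditions, these counts also lie near the background. BHLH34 and URI encode factors of the subgroup IVc and IVb types that act upstream of the Ib genes, and BHLH11 a negative regulator. The interaction was called for 0 of the 10, near the 2.39% of all tested genes called higher and 0.685% lower.

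Most of the listed iron uptake and coumarin genes, a pathway that FIT and the Ib factors drive, were called higher in P- in KC. Over all tested genes, 10.9% were called higher in P- and 9.6% lower in KC, and 14.1% and 10.3% in phod2. Of 10 listed genes, 6 were called higher and 0 lower in KC (median log2 1.15), while AHA2, F6'H1 and BGLU42 had lower means in P-. In phod2 1 was higher (COSY, 1.85) and 2 were lower (S8H, -1.56, and CYP82C4, -1.12), which lies near the background. In P+, 4 were higher in phod2 and 0 lower (median -0.03), among them the coumarin-oxidizing P450 gene CYP82C4 (4.27 ± 0.288) and the ferric reductase gene FRO2 (3.13 ± 0.203). S8H, whose product hydroxylates a coumarin, held 2 counts in KC P+ and 133 in phod2 P+, so its fitted difference depends on the prior count. In P- 0 were higher and 2 lower, CYP82C4 (-2.70) and IRT2 (-1.13). Between the genotypes, 1.98% of all tested genes were called higher and 5.42% lower in P+, and 2.23% and 2.46% in P-. The interaction was called lower for 5 of 10 and higher for 0, where 0.685% of all tested genes were called lower and 2.39% higher. The largest were those of CYP82C4 (-6.97 ± 0.319) and FRO2 (-3.76 ± 0.242) beside S8H. FRO2 stood at 1.84 ± 0.393 CPM in KC P+ and 31.1 ± 0.208 in KC P-, and phod2 had 16.4 ± 1.34 in P+ and 20.01 ± 4.49 in P-. By means, FRO2 was lowest in KC P+, with phod2 P+ above it but below KC P-. This order of 3 groups matches that of BTSL1 and differs from that of IMA1 and IMA2. The phod2 P- mean was above that of phod2 P+ for FRO2 but below it for BTSL1 (15.8 against 18.6 CPM).

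Among 19 genes of iron movement and other targets, 10 were called higher and 2 lower in P- in KC (median log2 1.02). The nicotianamine synthase genes NAS2 (4.46) and NAS3 (2.69) and the citrate exporter gene FRD3 (2.32) led. Against 10.9% of all tested genes called higher and 9.6% lower, the 2 lower lie near the background. In phod2 7 were higher and 3 lower (median 0.35), with NAS3 (2.68), NAS2 (2.17) and the vacuolar iron exporter gene NRAMP4 (1.93) leading. There 14.1% of all tested genes were called higher and 10.3% lower, so the 3 lower lie near the background. In P+ 2 were higher in phod2, NAS2 (1.90) and NAS4 (1.42), and 0 lower (median 0.29). Of all tested genes, 1.98% were called higher there and 5.42% lower. In P- the counts were 0 and 0 (median 0.02), near the 2.23% of all genes called higher and 2.46% lower. The interaction was called lower for NAS2 (-2.29) and NAS4 (-1.25), where 0.685% of all genes were called lower and 2.39% higher.

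Iron storage genes, which encode ferritins and vacuolar iron transporters, had lower summed levels in phod2, and FER1 made up the largest part of these sums. Of 8 listed genes 7 were tested, and 1 was called lower in phod2 in P+ (VTL5, -1.33) and 3 in P- (FER1, -1.45; VTL1, -1.39; FER3, -1.004), with 0 higher in each. The 1 in P+ lies near the 5.42% of all genes called lower there, while 2.46% were called lower in P-. The medians over the list were -0.77 and -0.94. Summed over the list, the level was 586.5 to 607 CPM in KC P+ and 1012 to 1039 in KC P-, and phod2 had 366 to 372 in P+ and 380 to 508 in P-. The phod2 sums lay below all KC sums. FER1 alone had means of 361.5 CPM in KC P+ and 804.8 in KC P-, and 211.8 and 294.3 in phod2. In P- the means of FER3, VTL1, VTL2 and VTL5 were also lower in phod2. Those of FER2 (4.65 in KC, 5.73 in phod2) and VIT1 (0.111, 0.201) were higher there, and FER4 was alike (31.9, 31.7). In P+ the mean of VIT1 was higher in phod2 and those of the other listed genes were lower. Between conditions 5 were higher and 1 lower in P- in KC (VTL1, 2.72; VTL2, 2.27; FER4, -1.26), and 4 were higher and 1 lower in phod2 (VTL2, 2.29; VTL1, 2.17; FER2, 1.92). The 1 lower gene in each genotype lies near the share of all genes called lower, 9.6% in KC and 10.3% in phod2. The interaction was called for 0 of the 7, near the 2.39% of all tested genes called higher and 0.685% lower.

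The genes most like each member were named by the smallest root mean square difference of centred log2 profiles over the 12 libraries, among all tested genes that are not members. For IMA1 they were AT2G24255 (0.44), AT1G07373 (0.45) and AT1G07367 (0.47), so 2 of its 3 closest genes lie beside it on chromosome 1. For IMA2 they were the NAC factor gene ANAC085 (0.43), AT1G07367 (0.44) and AT5G53240 (0.47). AT2G24255 had 0 counts in the KC groups and 0.428 and 0.594 CPM in phod2 P+ and P-. The genes named for IMA1 and IMA2 had means of at most 0.101 CPM in the KC groups, so their profiles there depend on the prior count. IMA3 was closest to AT2G21640 (0.19), AT3G58270 (0.25) and AT2G23110 (0.27). AT2G21640, described in the deposited table as a marker of oxidative stress, went from 3.04 CPM in KC P+ to 4.73 in KC P- and from 8.48 to 13.02 in phod2, and the values of IMA3 were 2.88 and 4.87 in KC and 10.6 and 14.98 in phod2.

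BHLH38 was closest to CML41 (0.46), JAL12 (0.50) and AT1G19830 (0.53), and BHLH39 to SD11 (0.15), CLH1 (0.21) and NPF2.13 (0.21). The genes most like BHLH100 were AT2G06355 (0.46), the defence gene ACD6 (0.48) and CRK13 (0.52). ACD6 stood at 26.8 CPM in KC P+ and 2.57 in KC P-, and phod2 had 123 in P+ and 6.01 in P-. BHLH101 was closest to AT3G19230 (0.35), AT4G38545 (0.36) and AT1G18735 (0.40). PYE was closest to FIS1A (0.10), ALY4 (0.10) and AT1G55840 (0.11), BTS to TPL (0.06), VLN1 (0.07) and MRL1 (0.07), and BTSL1 to AT3G14900 (0.11), ASE2 (0.13) and ACR4 (0.13). A small difference for BTS goes with the low spread of its profile, 0.39, and the profiles include phod2 P- replicate 2 with its length trend.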

How the data were processed

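Raw counts of reads per gene and FPKM values for 12 libraries came from 1 table that the authors deposited, per the file headers, and all value columns were mapped to samples by genotype, condition and number. The aligner, counting program, use of strand and read length are not given in the sources used here, and the build in the submitters' processing notes is a mouse assembly. Identifiers and coordinates are those of Arabidopsis: 32548 of 32833 genes matched a RefSeq TAIR10.1 locus, 99.95% of them with the same start and end, so coordinates are given as deposited and sequences come from that genome.

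From the deposited counts, edgeR 4.0.16 (R 4.3.3) kept genes with filterByExpr (smallest count 10), scaled with TMM and fitted 4 group means over 12 libraries with the quasi-likelihood test, with Benjamini-Hochberg adjustment over 20891 genes. The common biological coefficient of variation was 8.47%. Intervals are at 95%, calculated with the t distribution from an SE built on the fitted variance and weights. FPKM served for levels between genes and, with limma 3.58.1 on log2(FPKM + 1) and log2(FPKM + 0.1), as an alternative. DESeq2 1.42.0, other scalings and filters, a replicate block, a length correction and leaving out each library were further alternatives. Likeness used log2 CPM with a prior count of 2. The scripts were tested on simulated data. The 10 genes and the lists were chosen with earlier results of these data known. Named genes were all 10, up to 3 called genes with the largest change in each of 4 iron gene lists per comparison, and the 3 genes closest in profile to each member. Values of genes around the IMA pair, of genes overlapping members, of FIT and of FRO2 across groups were added after values had been seen. So were the counts of MYB72, BHLH18, BHLH19 and BHLH25. Counting intervals and floors cover counting error only. Replicate numbers were not taken to pair the samples.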

Additional observations from a re-analysis of the deposited data

Results flagged for a closer look

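The change of BHLH38 between conditions differed between the genotypes. Its log2 change from P+ to P- was 1.86 ± 0.353 in KC and -0.33 ± 0.207 in phod2, and the test of the difference itself gave -2.19 ± 0.41 (adjusted p = 0.00214, edgeR's quasi-likelihood test). All 3 KC P- libraries lay above all KC P+ libraries, and all 3 phod2 P- libraries lay below all phod2 P+ libraries. The overlapping gene PIP5K4 fell in P- in each genotype, by -1.27 and -1.53, and its part in the values of BHLH38 was not tested.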

How the results depend on the processing

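Of 1086 values over 22 alternative settings, 1030 kept their direction and side of the threshold, 20 newly passed it, 9 no longer passed it and 27 changed sign. The number of the 10 genes called was 3 (P- against P+ in KC), 2 (the same in phod2), 6 (phod2 against KC in P+), 3 (in P-) and 1 (interaction). With the 2-fold limit dropped it was 5, 5, 9, 6 and 2. With limma on log2(FPKM + 1) it was 0 in KC, since that scale understates changes of low genes, and with log2(FPKM + 0.1) 2 for the interaction. Leaving out each library gave 2 to 3, 2 to 3, 6 to 7, 3 to 4 and 1 to 2. Over all genes, calls numbered 4292, 5102, 1545, 979 and 643. They numbered 2718, 3370, 627, 432 and 354 with log2(FPKM + 1), and 13483, 14200, 5878, 4712 and 2501 with the 2-fold limit dropped.

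Values that changed sign reached at most 0.29 after the change (IMA1 between conditions in KC), apart from BHLH100 in the interaction. With upper-quartile factors the log2 value was 0.03 for IMA2 (P- against P+ in phod2), 0.002 for PYE and 0.008 for IMA1 in the interaction, and with DESeq2 0.031 for BHLH100 in the interaction. For PYE in phod2 it was -0.004 with log2(FPKM + 1), -0.005 with log2(FPKM + 0.1) and -0.039 with the length trend removed, which also gave 0.177 for BTSL1 in phod2 and 0.015 for BTS between the genotypes in P-. Without single libraries the interaction ranged from -0.64 to 0.21 for IMA1, -0.11 to 0.047 for PYE and -0.70 to 1.23 for BHLH100. Likewise IMA1 in KC ranged from -0.55 to 0.29, IMA2 in phod2 from -0.31 to 0.081, BTSL1 in phod2 from -0.39 to 0.007 and BTS between the genotypes in P- from -0.34 to 0.036. The cause was not tested.

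Deviations of samples of the same number had correlations of -0.17 to 0.098, and those of different numbers -0.15 to 0.18. The numbers were therefore not taken to pair the samples, though this does not exclude a pairing. With the replicate block the counts of the 10 genes were 3, 2, 6, 3 and 1, and the interaction of BHLH38 was -2.19. An interaction fit on only the groups compared is the same fit and was not run. BTSL1 passed 2-fold in the interaction without KC P- replicate 2 or phod2 P- replicate 1 or 3, and BTS in phod2 without phod2 P- replicate 1 (-1.01). At 0 to 9 counts per library, BHLH100 and BHLH101 in P- are limited by depth.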
